A study of Mus musculus with 12 samples.

Results

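The genes described are 10 members of the TGF-β pathway, chosen by name: the 3 ligands Tgfb1, Tgfb2 and Tgfb3, the receptors Tgfbr1, Tgfbr2 and Tgfbr3, the latency proteins Ltbp1 and Ltbp2, the activin A subunit gene Inhba and the inhibitory Smad gene Smad7. All 10 were found by symbol among the 55453 genes listed, and all 10 were among the 18311 genes with enough counts to be tested. They were measured by bulk RNA-Seq of back skin from 12 female C57BL/6 mice aged 8 to 12 weeks, 3 in each of 4 groups. WT PBS mice were wild-type littermates given PBS, WT BLM mice were wild-type and given bleomycin, KO PBS mice lacked Thy-1 and were given PBS, and KO BLM mice lacked Thy-1 and were given bleomycin. Bleomycin, a drug that causes skin fibrosis where it is injected, was given under the back skin at 10 mg/kg per day. The methods describe injections for up to 14 days, the labels describe 21 days of treatment, and all skin was taken on day 21. The Thy-1 knockout was global, that is, not limited to 1 chosen cell type, and whole skin was used, so no value belongs to a single cell type. The comparisons address how the expression of these genes differed with bleomycin and with the loss of Thy-1.

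TGF-β is made as a latent complex in which the mature dimer is held by its own propeptide, and LTBP proteins tether this complex to the extracellular matrix until integrins or proteases release it. The freed ligand brings together the type II receptor (Tgfbr2) and the type I receptor (Tgfbr1), helped by the co-receptor betaglycan (Tgfbr3), and the type I receptor then phosphorylates Smad2 and Smad3. Smad7 is itself induced by the pathway and in turn blocks the type I receptor. In skin the pathway drives fibroblasts to make matrix, and it also takes part in the regression phase of the hair cycle.

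The libraries held 26473700 to 38890450 counts on genes, and the 10 genes received from 109 (Inhba in WT PBS replicate 160) to 11275 counts (Tgfbr2 in KO PBS replicate 137). Thy1, the gene removed in the KO mice, was still counted, at 45.6 to 96.9 CPM (the count of a gene relative to the TMM-scaled library total) in KO PBS against 104 to 150 CPM in WT PBS, and at 84.7 to 128 CPM in KO BLM against 231 to 416 CPM in WT BLM. The KO and WT ranges did not overlap under either treatment, although the highest KO BLM mouse (128 CPM) was within the range of WT PBS mice, and neither difference passed the test (adjusted p = 0.224 and 0.112). Counts per gene do not show which exons the remaining reads came from. Basal keratinocyte markers were present in every mouse, with a summed level of 6507 to 18010 CPM. A list of growing-hair genes (hair keratins, trichohyalin and regulators of the hair matrix, 17 of 18 found) set 2 KO mice apart from their groups. Its mean log2 CPM was 9.64 to 10.2 in WT PBS mice and −0.29 to 3.76 in WT BLM mice. Among KO mice it was 10.1 in KO PBS replicate 136 but −0.61 and 1.95 in the other KO PBS mice, and 9.18 in KO BLM replicate 141 but 5.52 and 6.48 in the other KO BLM mice. Results that rest on these mice are therefore given with and without them. In WT skin the hair level and the treatment cannot be told apart, since no WT PBS mouse had a low hair level and no WT BLM mouse a high one.

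Set per kilobase of exon, so that genes of different length can be compared, Tgfbr2 was the most abundant of the 10 transcripts in WT PBS skin, at 19.8 ± 7.90 CPM per kb (SD, n = 3), and Inhba the least, at 0.709 ± 0.128 CPM per kb. Smad7 followed Tgfbr2 at 10 CPM per kb, then Tgfbr3 at 8.40, Tgfb3 at 7.14, Tgfb1 at 6.59, Tgfbr1 at 5.46 and Ltbp1 at 4.42 CPM per kb, while Tgfb2 and Ltbp2 were at 1.98 and 1.49 CPM per kb. The levels of the neighbours Smad7 and Tgfbr3, Tgfbr3 and Tgfb3, and Tgfb3 and Tgfb1 overlapped between mice in this order, and those of the other neighbours did not. In WT BLM skin the order began with Tgfbr2 at 30.4 CPM per kb and Tgfb3 at 28.7 CPM per kb, whose ranges overlapped, and Smad7 had moved to the ninth place at 2.81 CPM per kb. When each mouse was matched to the one closest to it in the log2 CPM of the 10 genes, 10 of the 12 mice were matched within their own group. KO PBS replicate 136 was matched to a WT PBS mouse (159) and WT BLM replicate 145 to a KO BLM mouse (144).

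**Figure D1:**
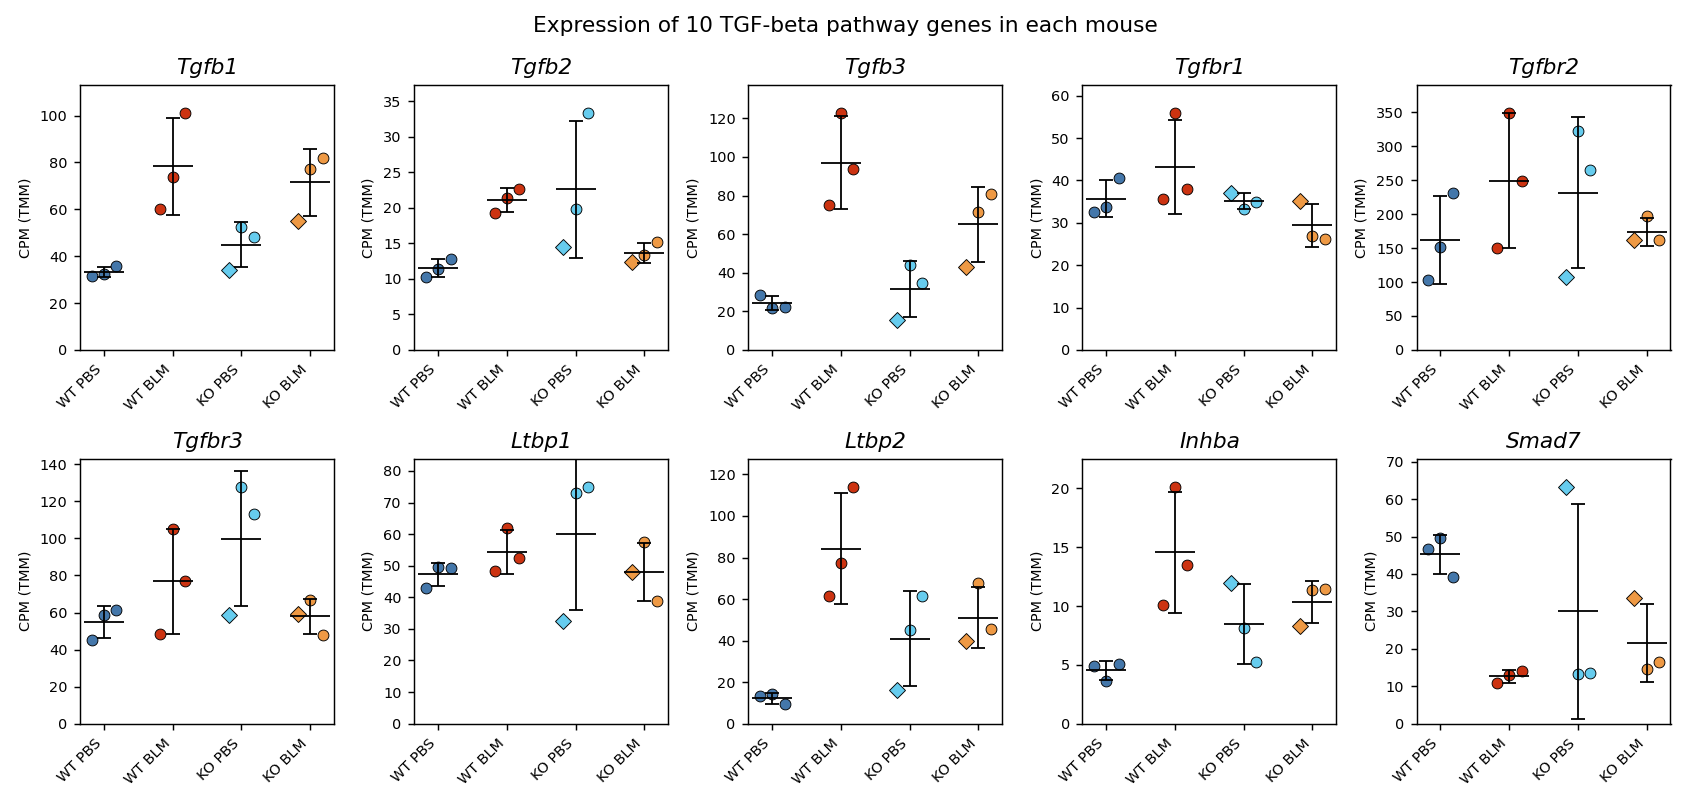
Expression of the 10 genes in each mouse, in CPM after TMM scaling on a linear axis from 0, by group. Each point is 1 mouse, the horizontal lines are group means and the bars SD (n = 3), and diamonds mark KO PBS replicate 136 and KO BLM replicate 141. For Tgfb1, Tgfb2, Tgfb3, Ltbp2 and Inhba the 3 WT BLM mice lie above the 3 WT PBS mice, and for Smad7 they lie below.

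In WT skin all 3 TGF-β ligands, Ltbp2 and Inhba rose with bleomycin and Smad7 fell, whereas Ltbp1 and the 3 receptors did not pass the test. Ltbp2 differed most, at 6.94 times its level in WT PBS. Of the 10 genes, 5 were called higher and 1 lower by the quasi-likelihood test of edgeR (threshold 0.05 after Benjamini-Hochberg adjustment, with all 4 groups in the same model), where 19.8% of all genes tested were called higher and 14.1% lower. The median log2 fold change was 0.75 over the 10 genes and 0.02 over all genes tested. The WT groups did not overlap for the same 6 genes, 5 of them higher and 1 lower in WT BLM, and among all genes tested 28.3% lay wholly higher and 28.7% wholly lower. When the hair list was added as a covariate, 0 of the 10 were called by edgeR, and 13 of all genes tested against 6222 without it. In these bulk samples a smaller number of cells of a type and less RNA per cell cannot be told apart.

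**Figure D2:**
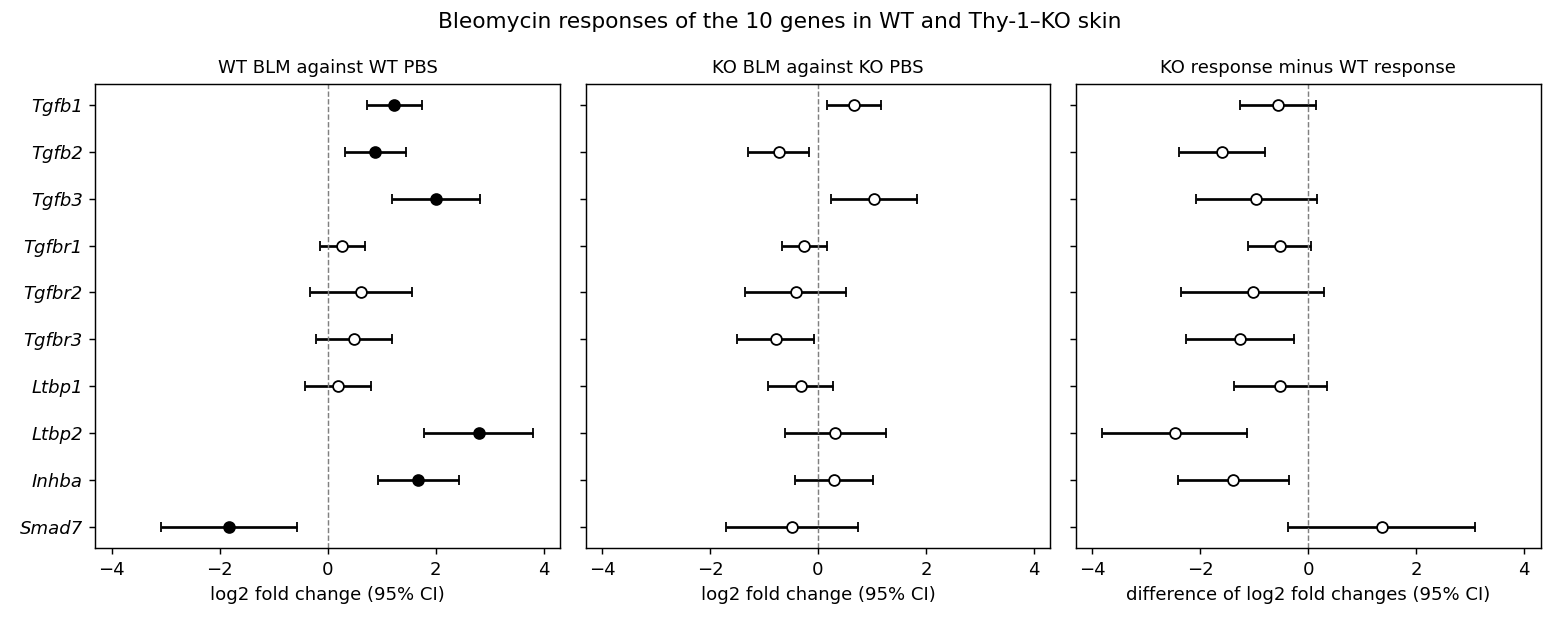
Log2 fold changes with 95% confidence intervals from edgeR's model for the 10 genes in WT BLM against WT PBS, in KO BLM against KO PBS, and for the difference between those responses (KO minus WT). Filled points passed the adjusted threshold of 0.05. In WT mice 6 points are filled, and none is filled in the other panels.

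Tgfb1 (GRCm38 chromosome 7, 25687002 to 25705077, plus strand) encodes the isoform best known from fibrosis. It was at 31.5, 32.4 and 35.8 CPM in the WT PBS mice and at 60.0, 73.9 and 101 CPM in the WT BLM mice, so that the groups did not overlap. This was a log2 fold change of 1.24 (SE 0.23, adjusted p = 0.00638). Its level in KO mice was 34.1 (replicate 136), 52.6 and 48.2 CPM with PBS and 55.1 (replicate 141), 77.4 and 82 CPM with bleomycin. The KO groups did not overlap either, although the lowest KO BLM mouse was only just above the highest KO PBS mouse, and the log2 fold change of 0.67 (SE 0.23) did not pass the test (adjusted p = 0.164).

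Tgfb2 (chromosome 1, 186622792 to 186705989, minus strand) encodes a second isoform, which depends on betaglycan for strong receptor binding. It was at 10.3, 11.3 and 12.8 CPM in WT PBS and at 19.2, 21.4 and 22.7 CPM in WT BLM mice, a log2 fold change of 0.88 (SE 0.26, adjusted p = 0.0271) with no overlap. This call was lost when a single WT mouse was left out, with adjusted p = 0.0972, 0.0936 and 0.0593 without WT PBS replicates 159, 160 and 161 and 0.0623 and 0.0738 without WT BLM replicates 146 and 147. The KO mice were ordered the other way, at 14.5 (replicate 136), 19.9 and 33.3 CPM with PBS and at 12.4 (replicate 141), 13.3 and 15.2 CPM with bleomycin. The mean of KO PBS mice (22.6 CPM) thus lay close to that of WT BLM mice (21.1 CPM), and the mean of KO BLM mice (13.7 CPM) close to that of WT PBS mice (11.5 CPM). The KO log2 fold change was −0.72 (SE 0.25, adjusted p = 0.171).

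Tgfb3 (chromosome 12, 86056745 to 86079041, minus strand), the third isoform, had the largest log2 fold change of the ligands in WT mice. It was at 28.4, 21.8 and 22.2 CPM in WT PBS and at 74.9, 123 and 93.5 CPM in WT BLM mice, a log2 fold change of 2.01 (SE 0.37, adjusted p = 0.00638). The lowest WT BLM mouse was far above the highest WT PBS mouse. In KO mice it was at 15.5 (replicate 136), 43.9 and 34.9 CPM with PBS and at 42.9 (replicate 141), 71.3 and 80.7 CPM with bleomycin. Those groups overlapped by a narrow margin, through KO BLM replicate 141, and the log2 fold change was 1.05 (SE 0.36, adjusted p = 0.169). The gene Ttll5 on the opposite strand, introns included, spans 39.8% of the exon bases of Tgfb3 and received 428 to 567 counts per mouse. How far the exons of the pair overlap was not measured. Reads in any shared exon bases cannot be told apart if strand was not used in the counting, which is not stated.

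Inhba (chromosome 13, 16011851 to 16031621, plus strand) encodes the subunit that pairs with itself to form activin A, a TGF-β family ligand that signals through the same Smads. It was at 4.94, 3.59 and 5.07 CPM in WT PBS and at 10.1, 20.1 and 13.5 CPM in WT BLM mice, a log2 fold change of 1.68 (SE 0.34, adjusted p = 0.00797). All 3 WT BLM mice were at least at 10.1 CPM and no WT PBS mouse was above 5.07 CPM. The KO mice had 12 (replicate 136), 8.12 and 5.27 CPM with PBS and 8.33 (replicate 141), 11.4 and 11.5 CPM with bleomycin. Here KO PBS replicate 136 was the highest of all 6 KO mice, the groups overlapped, and the log2 fold change was 0.29 (SE 0.33, adjusted p = 0.627). An antisense gene, Gm48444, spans 84.2% of the exon bases of Inhba but was listed with 0 counts in every mouse.

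The TGF-β ligands also differed in their proportion to each other. Tgfb3 made up 51.1%, 43.5% and 41.4% of the summed counts per kb of the 3 ligands in the WT PBS mice and 59.3%, 66.4% and 53.6% in the WT BLM mice, which did not overlap. The share of Tgfb2 was 10.8% to 13.9% in WT PBS and 6.77% to 8.89% in WT BLM mice. In KO mice the Tgfb2 share was 18.1%, 12.8% and 22.4% with PBS and 8.33%, 5.93% and 6.15% with bleomycin, so bleomycin-treated mice of both genotypes had a smaller Tgfb2 share than any PBS-treated mouse. These shares were not tested.

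**Figure D3:**
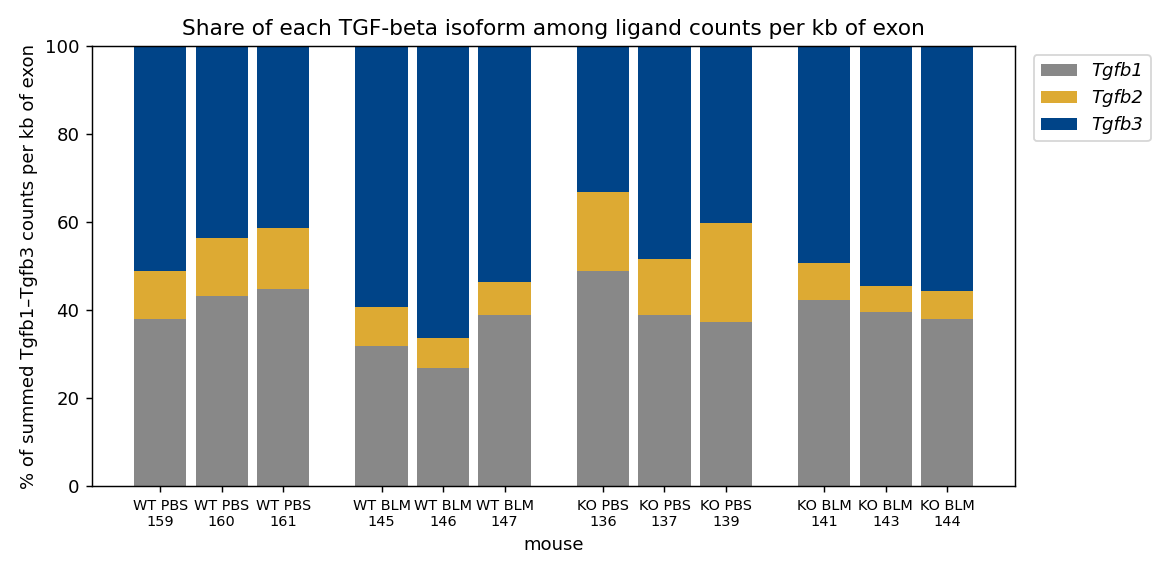
Share of each TGF-β isoform in the summed Tgfb1, Tgfb2 and Tgfb3 counts per kb of exon (percent, stacked bars), 1 bar per mouse. The Tgfb2 segment lies between 5.93% and 8.89% in the 6 bleomycin-treated mice and between 10.8% and 22.4% in the 6 PBS-treated mice.

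Of the latency proteins, Ltbp2 changed and Ltbp1 did not pass the test. Ltbp2 (chromosome 12, 84783212 to 84876532, minus strand), which belongs to the LTBP family but does not itself hold latent TGF-β, was at 13.1, 14.1 and 9.22 CPM in WT PBS and at 61.7, 77.2 and 114 CPM in WT BLM mice. Its log2 fold change of 2.79 (SE 0.45, adjusted p = 0.00477) was the largest of the 10 genes. In KO mice it was at 16.1 (replicate 136), 45.1 and 61.3 CPM with PBS and at 39.7 (replicate 141), 67.7 and 45.8 CPM with bleomycin. Both KO PBS mice other than replicate 136 were already within or near the range of KO BLM mice, and the log2 fold change between the KO groups was 0.32 (SE 0.42, adjusted p = 0.688). Ltbp1 (chromosome 17, 75005568 to 75392512, plus strand), which binds latent TGF-β to the matrix, was at 43.1 to 49.6 CPM in WT PBS and at 48.2 to 61.9 CPM in WT BLM mice, ranges that overlapped. Its log2 fold change was 0.20, with a 95% interval of −0.41 to 0.81 (adjusted p = 0.593).

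The promoters of 4 of the 5 genes that rose in WT skin are shown because these genes were called higher in WT BLM mice. Their fitted responses in KO mice differed, at 0.67 for Tgfb1, −0.72 for Tgfb2, 0.29 for Inhba and 0.32 for Ltbp2, none of them called. Whether the genes are regulated together was not tested. Each sequence is from RefSeq (GRCm38.p6) and reads 5′ to 3′ on the strand of the gene towards the start site. It ends at the base before the start site (Tgfb1, Tgfb2 and Inhba) or, for Ltbp2, before the first base of the longer gene annotated in GENCODE. Capitals mark matches, on either strand, to 5 motifs: the CAGA box bound by Smad3 and Smad4, the AP-1 motif, the cAMP response element, the TATA box and the GC box. No matches overlap each other here, and the letters of each motif are given after the sequences.
Tgfb1 (chr7:25686752-25687001, plus strand): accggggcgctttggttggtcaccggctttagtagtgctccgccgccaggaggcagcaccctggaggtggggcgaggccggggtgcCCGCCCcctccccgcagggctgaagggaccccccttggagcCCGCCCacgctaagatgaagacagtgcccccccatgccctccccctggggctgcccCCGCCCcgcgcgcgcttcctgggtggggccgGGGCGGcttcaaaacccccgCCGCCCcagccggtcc
Tgfb2 (chr1:186705990-186706239, minus strand): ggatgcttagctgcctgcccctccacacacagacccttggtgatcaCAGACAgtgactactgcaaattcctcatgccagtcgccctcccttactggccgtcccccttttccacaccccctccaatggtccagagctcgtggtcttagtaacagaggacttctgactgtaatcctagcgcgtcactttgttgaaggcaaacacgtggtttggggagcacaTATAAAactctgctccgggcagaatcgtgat
Inhba (chr13:16011601-16011850, plus strand): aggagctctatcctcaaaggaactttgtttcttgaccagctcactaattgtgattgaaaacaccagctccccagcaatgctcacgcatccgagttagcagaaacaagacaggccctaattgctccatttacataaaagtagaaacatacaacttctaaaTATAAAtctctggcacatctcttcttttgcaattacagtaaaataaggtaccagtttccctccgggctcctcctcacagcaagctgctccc
Ltbp2 (chr12:84876533-84876741, minus strand): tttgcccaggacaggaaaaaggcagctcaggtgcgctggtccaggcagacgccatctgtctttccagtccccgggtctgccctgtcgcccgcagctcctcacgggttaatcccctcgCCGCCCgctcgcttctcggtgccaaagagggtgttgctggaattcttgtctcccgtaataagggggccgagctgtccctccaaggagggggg

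The Tgfb1 promoter held 5 GC boxes (GGGCGG) and was 75.2% GC, against a median of 52.4% for the 32851 windows of 250 bases in the RefSeq table, of which 32.7% held a GC box. The Tgfb2 promoter held a CAGA box (CAGACA) 204 bases and a TATA box (TATAAA) 31 bases before the start site, motifs found in 17.1% and 12.4% of windows. The Inhba promoter, at 43.2% GC, held a TATA box 91 bases before the start site. The Ltbp2 window held a GC box 133 bases before the start site and a second one 9 bases before it, beyond the stretch shown. None of the 4 windows held the AP-1 motif (TGACTCA, in 4.46% of windows) or the cAMP response element (TGACGTCA, in 1.55% of windows), which says only that these letters are not in these 250 bases. None of the 5 motifs was held by all 4 promoters. Promoter sequences were matched for 7 of the 10 genes.

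None of the 3 receptors passed the test in WT mice, and their WT groups overlapped. Tgfbr2 (chromosome 9, 116084293 to 116175360, minus strand), the type II receptor that binds the ligand first, was at 103, 152 and 232 CPM in WT PBS and at 150, 348 and 249 CPM in WT BLM mice. The groups overlapped, and the log2 fold change of 0.62 had a 95% interval of −0.33 to 1.56 (adjusted p = 0.273). KO skin had 108 (replicate 136), 322 and 264 CPM with PBS and 161 (replicate 141), 198 and 162 CPM with bleomycin, where the low value of replicate 136 was below every KO BLM mouse and the other KO PBS mice were above them all. Tgfbr1 (chromosome 4, 47353222 to 47414931, plus strand), the kinase that phosphorylates the Smads, was at 32.7 to 40.6 CPM in WT PBS, 35.5 to 55.9 CPM in WT BLM, 33.2 to 37.0 CPM in KO PBS and 26.2 to 35.3 CPM in KO BLM mice. In WT mice its log2 fold change was 0.27 (95% interval −0.14 to 0.69, adjusted p = 0.263). Tgfbr3 (chromosome 5, 107106570 to 107289629, minus strand), the co-receptor betaglycan, was at 45.3, 58.5 and 61.2 CPM in WT PBS and at 48.4, 105 and 76.9 CPM in WT BLM mice, with a log2 fold change of 0.48 (95% interval −0.22 to 1.19, adjusted p = 0.252). In KO mice it was at 58.6 (replicate 136), 128 and 113 CPM with PBS and at 59.2 (replicate 141), 66.9 and 48.1 CPM with bleomycin. Here too the overlap between the KO groups came from replicate 136, and the log2 fold change was −0.78 (SE 0.32, adjusted p = 0.214).

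Smad7 (chromosome 18, 75367529 to 75395935, plus strand), the feedback inhibitor, was the only member with a negative fold change in WT mice. It was at 46.8, 49.6 and 39.3 CPM in the WT PBS mice and at 10.8, 13 and 14.2 CPM in the WT BLM mice, 3.56-fold lower (log2 fold change −1.83, SE 0.57, adjusted p = 0.0337). This call was lost when any 1 of the 6 WT mice was left out, with adjusted p = 0.0708, 0.0725 and 0.0582 without WT PBS replicates 159, 160 and 161, and 0.0889, 0.08 and 0.0764 without WT BLM replicates 145, 146 and 147. In KO mice it was at 63.2 CPM in PBS replicate 136 and at 13.2 and 13.5 CPM in the other KO PBS mice, and at 33.6 CPM in BLM replicate 141 and at 14.7 and 16.5 CPM in the other KO BLM mice. The 5 mice with Smad7 above 33 CPM were thus the 5 mice with a growing-hair level above 9, and the other 7 mice, which include both genotypes and both treatments, lay between 10.8 and 16.5 CPM. In the fit with the hair covariate the WT log2 fold change of Smad7 was 0.06 (adjusted p = 0.982). Ltbp2 divided the mice in the same way with the order turned, at 9.22 to 39.7 CPM in those 5 mice and at 45.1 to 114 CPM in the other 7. Tgfb2 was at 19.2 to 33.3 CPM in the 5 mice with a hair level below 4 and at 10.3 to 15.2 CPM in the other 7. These cut-offs, above 9 for Smad7 and Ltbp2 and below 4 for Tgfb2, were not fixed in advance. KO BLM replicates 143 and 144 (hair levels 5.52 and 6.48) are grouped with the low hair levels by the first and with the high ones by the second. The share of all genes that divide the mice in these ways was not counted. In KO PBS replicates 137 and 139, which had hair levels of −0.61 and 1.95, Tgfb1 (52.6 and 48.2 CPM) and Tgfb3 (43.9 and 34.9 CPM) were between the WT PBS and WT BLM ranges, Ltbp2 (45.1 and 61.3 CPM) reached up to the lower edge of the WT BLM range, and Tgfb2 (19.9 and 33.3 CPM) was within or above it. The part of the hair level in these values was not tested beyond the covariate fit.

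**Figure D4:**
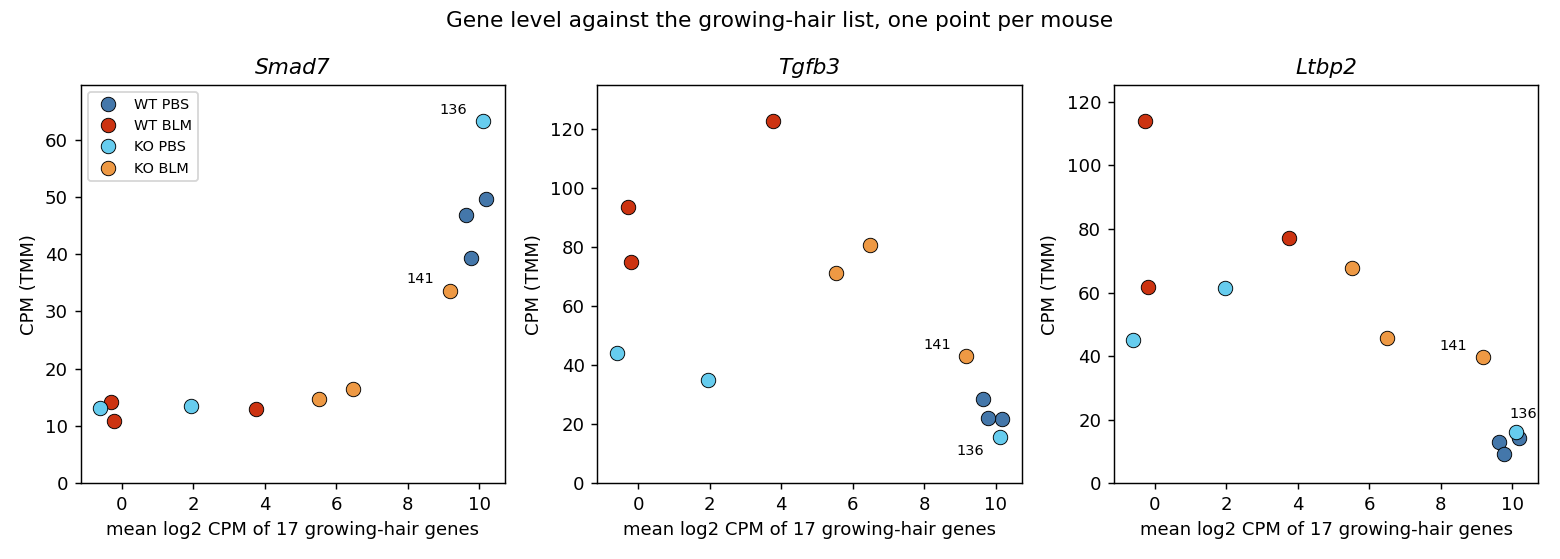
CPM of Smad7, Tgfb3 and Ltbp2 (linear axes from 0) against the mean log2 CPM of 17 growing-hair genes, 1 point per mouse, coloured by group, with KO PBS replicate 136 and KO BLM replicate 141 numbered. For Smad7 the 5 mice at the right lie at 33.6 to 63.2 CPM and the other 7 at 10.8 to 16.5 CPM, for Ltbp2 the same 5 mice lie at 9.22 to 39.7 CPM and the others at 45.1 to 114 CPM, and for Tgfb3 the KO PBS mice 137 and 139 lie between the WT groups.

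Markers of several other cell types also differed in the WT comparison, where 19.8% of all genes tested were called higher and 14.1% lower. All 10 macrophage markers were higher in WT BLM, 9 of them called, and their summed level was 390 to 907 CPM in WT PBS, 2263 to 3258 CPM in WT BLM, 410 to 2002 CPM in KO PBS and 1519 to 2148 CPM in KO BLM mice. Of 10 dermal fibroblast markers, 5 were called higher. Their summed level was 6142 to 8240 CPM in WT PBS and 10957 to 35140 CPM in WT BLM mice. In KO mice the sum was 5734 to 18680 CPM with PBS and 8956 to 23781 CPM with bleomycin. By the mean log2 CPM of these markers, however, the WT groups overlapped. WT BLM replicate 145 (7.64) was below the lowest WT PBS mouse (7.73), while WT BLM replicates 146 (9.53) and 147 (8.98) were above every WT PBS mouse. Skeletal muscle markers were called higher in 9 of 10 cases, with summed levels of 5125 to 5773 CPM in WT PBS, 17630 to 35679 CPM in WT BLM, 6538 to 26536 CPM in KO PBS and 10283 to 19783 CPM in KO BLM mice. Endothelial markers were called higher in 5 of 8 and T cell markers in 6 of 6 cases, and 9 of 17 growing-hair genes were called lower. Of adipocyte markers 0 of 6 were called, and 2 of 6 basal and 2 of 5 suprabasal keratinocyte markers were called higher. Of 3 neutrophil markers tested, 1 was called higher and 1 lower. Markers of platelets, which store TGF-β1 protein, summed to 17.9 to 63.4 CPM over all mice and had 0 of 3 tested markers called by edgeR in this comparison (2 at an unadjusted p under 0.05). Of the 18311 genes tested, 8686 had an unadjusted p under 0.05 here. No marker of these lists was at 0 in all mice of a group, apart from 1 neutrophil marker in WT PBS and 1 in KO BLM mice. The part of these cell types in the changes of the 10 genes was not tested.

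In Thy-1–KO skin none of the 10 genes passed the test between KO BLM and KO PBS (0 by edgeR, 0 by DESeq2, 4 at an unadjusted p under 0.05), where 0.251% of all genes were called higher and 0.0546% lower. Of the 18311 genes tested, 3665 had an unadjusted p under 0.05 in edgeR. Tgfb1 and Tgfb3 had positive fold changes, and those of Tgfb2 and all 3 receptors were negative. The median log2 fold change was −0.29 over the 10 genes and −0.01 over all genes tested. Tgfb1 was the 1 gene with no overlap, higher in KO BLM, where 10.8% of all genes lay wholly higher and 8.44% wholly lower. Without KO PBS replicate 136, 3 of the 10 genes were called, all lower in KO BLM, namely Tgfb2 (log2 fold change −0.96, adjusted p = 0.0211), Tgfbr3 (−1.05, 0.0351) and Ltbp1 (−0.62, 0.0355), and 14% of all genes were called. Without both replicate 136 and KO BLM replicate 141, Tgfb1 (0.66, adjusted p = 0.0491) and Tgfb3 (0.95, adjusted p = 0.0245) were also called, both higher, and 22.3% of all genes were called. Without replicate 136 the KO PBS mice had hair levels of −0.61 and 1.95, and the KO BLM mice had 5.52 to 9.18. Bleomycin and hair level therefore cannot be told apart in these fits. The hair covariate called Tgfb1 (0.89, adjusted p = 0.0245) and Tgfb3 (1.49, adjusted p = 0.0231) and no other member, with 9.02% of all genes called. In that fit the log2 fold changes were −0.50 for Tgfb2, −0.55 for Tgfbr3 and 0.0240 for Ltbp1.

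Between the PBS-treated groups, several of the genes had a higher mean in KO than in WT skin without passing the test. The largest differences were those of Ltbp2 (log2 fold change 1.75, SE 0.44, adjusted p = 0.194), Tgfb2 (0.98, SE 0.26, adjusted p = 0.198), Inhba (0.90, SE 0.33, adjusted p = 0.213) and Tgfbr3 (0.86, SE 0.32, adjusted p = 0.215). For Ltbp2, Tgfb2 and Inhba all 3 KO PBS mice were above all 3 WT PBS mice, where 8.62% of all genes lay wholly higher and 10.3% wholly lower. For Inhba the margin was narrow, at 5.27 CPM in KO PBS replicate 139 and 5.07 CPM in WT PBS replicate 161. Without replicate 136 the log2 fold change of Inhba was 0.56 (adjusted p = 0.179). In this comparison 0 of the 10 genes were called by edgeR (4 at an unadjusted p under 0.05) and 2 by DESeq2, Tgfb2 (adjusted p = 0.0259) and Ltbp2 (adjusted p = 0.00838), and edgeR called 0.0382% of all genes higher and 0.0273% lower. DESeq2 called 746 genes between these groups, 1.35% of the 55453 genes listed. Only 34689 of the genes listed had a count, so this share is not comparable with those of edgeR. With all mice, 3727 of the 18311 genes tested had an unadjusted p under 0.05 in edgeR. Without replicate 136 edgeR called 5 of the 10 genes and 36.7% of all genes. These were Tgfb2 (1.21, adjusted p = 0.00261), Tgfbr3 (1.13, adjusted p = 0.0113), Ltbp1 (0.64, adjusted p = 0.0132) and Ltbp2 (2.13, adjusted p = 0.00148), which were higher in KO PBS, and Smad7 (−1.76, adjusted p = 0.00379), which was lower. The KO PBS mice that remain had hair levels of −0.61 and 1.95 against 9.64 to 10.2 in WT PBS mice, so without replicate 136 genotype and hair level cannot be told apart. With all mice and the hair covariate 0 members were called by edgeR, and the log2 fold changes of Ltbp2 and Tgfb2 were 0.69 and 0.59.

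Between the bleomycin-treated groups 9 of the 10 genes had a lower fitted level in KO BLM than in WT BLM, Smad7 being the exception, and none passed the test (0 by edgeR, 0 by DESeq2, 2 at an unadjusted p under 0.05). Across all genes 0.0546% were called higher and 0.0382% lower, and 3043 of the 18311 genes tested had an unadjusted p under 0.05 in edgeR. The smallest adjusted p was that of Tgfbr1 (log2 fold change −0.55, 95% interval −0.96 to −0.14, adjusted p = 0.25), followed by Tgfb2 (−0.63, 95% interval −1.19 to −0.06, adjusted p = 0.278). For both of them every KO BLM mouse was below every WT BLM mouse, and for Smad7 every KO BLM mouse was above, where 14.7% of all genes lay wholly higher and 12.9% wholly lower. The margin was narrow for Tgfbr1, at 35.3 CPM in KO BLM replicate 141 and 35.5 CPM in WT BLM replicate 145. It was also narrow for Smad7, at 14.7 CPM in KO BLM replicate 143 and 14.2 CPM in WT BLM replicate 147. Tgfb1 differed by −0.13 (95% interval −0.63 to 0.37), Tgfb3 by −0.58 (−1.37 to 0.21), Ltbp2 by −0.72 (−1.66 to 0.21) and Inhba by −0.49 (−1.21 to 0.23) on the log2 scale. No member was called without replicate 136, without replicates 136 and 141, or with the hair covariate. The hair level was 5.52 to 9.18 in KO BLM and −0.29 to 3.76 in WT BLM mice. Genotype and hair level therefore cannot be told apart between these groups. With the hair covariate the log2 fold changes were −0.80 for Tgfbr1, −0.28 for Tgfb2 and −0.62 for Smad7.

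How the bleomycin response differed between KO and WT mice was tested as an interaction, which shares the 4 groups with the comparisons above. It was negative for 9 of the 10 genes, which means a smaller or opposite response in KO mice, and positive for Smad7. None passed the test in edgeR (0 genes, 4 at an unadjusted p under 0.05), where 0% of all genes were called in either direction (5687 of all genes at an unadjusted p under 0.05). Tgfb2 had a difference of −1.60 (SE 0.36, adjusted p = 0.0702), Ltbp2 of −2.47 (SE 0.61, adjusted p = 0.0702), Inhba of −1.39 (SE 0.46, adjusted p = 0.0961) and Tgfbr3 of −1.26 (SE 0.45, adjusted p = 0.106) on the log2 scale. For Tgfb2, Ltbp2, Inhba and Tgfbr3, KO skin was above WT skin by 0.98, 1.75, 0.90 and 0.86 with PBS. With bleomycin KO skin was below WT skin by less, at −0.63, −0.72, −0.49 and −0.41, and edgeR called none of these values. Tgfb2 was the 1 ligand whose fitted response had opposite signs in WT (0.88) and KO mice (−0.72). By DESeq2, the tool of the methods, the differences of Tgfb2 (adjusted p = 0.00252), Ltbp2 (0.00289) and Inhba (0.0317) were called. DESeq2 called 3253 genes for this difference, 5.87% of the 55453 genes listed. Only 34689 of the genes listed had a count, and edgeR tested 18311. The DESeq2 share is therefore lower than 1 taken over the genes tested by edgeR would be. Without KO PBS replicate 136, when the hair level separates the PBS groups in the same way, edgeR called 7 of the 10 genes and 39.9% of all genes. Of these 6 were lower, among them Tgfb2 (−1.84, adjusted p = 0.00114), Tgfb3 (−1.28, adjusted p = 0.0209), Tgfbr3 (−1.53, adjusted p = 0.0096) and Ltbp2 (−2.85, adjusted p = 0.000969), and Smad7 was higher (2.53, adjusted p = 0.00182). With the hair covariate 0 members were called, and the difference of Tgfb3 was 0.37 (adjusted p = 0.891).

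Other genes of the pathway were read from the same fit for context. In WT skin 30 of 59 (50.8%) were called, 23 higher and 7 lower, where 34% of all genes tested were called, and 1 of the 59 (Timp1) was called with the hair covariate. The target genes rose most often (11 of 17 higher and 1 lower), among them Timp1 (a metalloproteinase inhibitor, log2 fold change 4.15, adjusted p = 0.00215), while Id1, a target of BMP signalling, fell (−0.83, adjusted p = 0.0125). Among genes of latency and activation 5 of 11 rose, with Lrrc32 (the GARP protein that displays latent TGF-β on cells, 2.30) and Emilin1 (a matrix inhibitor of TGF-β processing, 2.17) the highest, and the LTBP genes Ltbp3 (−0.83) and Ltbp4 (−0.62) fell. Of 4 matrix binders of the ligand, the proteoglycan genes Aspn (3.20) and Bgn (1.78) rose. The endothelial receptors Acvrl1 (1.08) and Eng (1.02) rose and the pseudoreceptor Bambi fell (−4.58, adjusted p = 0.0161), out of 5 co-receptors. Of 14 Smads and regulators 2 rose, Smad3 (0.36) and the ubiquitin ligase Smurf1 (0.32), and 3 fell, with the inhibitory Smad6 (−2.81, adjusted p = 0.0143) and the repressor Tgif2 (−0.96) the lowest. Fst (follistatin, which neutralizes activin) rose (0.67) as the 1 called of 8 genes of the activin axis. The calls of Ltbp3, Fst, Acvrl1, Eng, Bambi, Smad3, Smurf1 and Tgif2 were lost without at least 1 of the WT mice, with adjusted p of up to 0.157 (Smurf1 without WT PBS replicate 160). DESeq2 gave Bambi no adjusted p in this comparison. The number of pathway genes called was 15 without WT PBS replicate 159 and 15 without WT PBS replicate 160, in fits that called 14% and 13.9% of all genes.

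Bambi and Smad6, which like Smad7 restrain signalling at the receptor, also spread widely among KO mice. Bambi was at 98.8 to 111 CPM in WT PBS, 2.51 to 6.55 CPM in WT BLM, 5.26 to 117 CPM in KO PBS and 12.9 to 69.4 CPM in KO BLM mice. Smad6 was at 28.2 to 34.6 CPM in WT PBS, 3.21 to 6.03 CPM in WT BLM, 6.34 to 34.3 CPM in KO PBS and 6.51 to 23.5 CPM in KO BLM mice. For both genes the highest KO PBS mouse was at the level of WT PBS mice and the lowest at, or just above, the range of WT BLM mice. Neither gene was called in WT mice with the hair covariate, and the part of the hair level in their spread was not tested.

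In KO skin 4 of the 59 pathway genes were called, 3 higher and 1 lower, where 0.306% of all genes tested were called. The collagen-associated gene Cthrc1 was at 2.93 to 3.58 CPM in KO PBS and 20.3 to 79.3 CPM in KO BLM mice (log2 fold change 4.05, adjusted p = 0.0341), and Timp1 at 2.66 to 6.63 CPM and 24.0 to 71.6 CPM (3.30, adjusted p = 0.0305). Tagln, a smooth muscle protein named here after its values were seen, was the third gene that rose, and Ltbp4 fell (−0.95, adjusted p = 0.0341) from 477 to 562 CPM to 245 to 285 CPM. The calls of Cthrc1, Timp1 and Ltbp4 were lost when single mice were left out, with the largest adjusted p (0.146 for each) without KO PBS replicate 139, and the count was 0 without any 1 of the WT PBS mice, KO PBS replicate 139 or KO BLM replicates 143 and 144, 1 without WT BLM replicate 147, 8 without KO BLM replicate 141 and 12 without KO PBS replicate 136. Of all genes, 6.19% were called without replicate 141 and 14% without replicate 136. Without replicate 136 the hair level also separates the KO groups. No pathway gene was called by edgeR between KO PBS and WT PBS (0, with 14 at an unadjusted p under 0.05 and 5 by DESeq2), between KO BLM and WT BLM (0, 11 and 2) or for the difference of responses (0, 22 and 13), and without KO PBS replicate 136 these counts were 23, 4 and 25 of 59, in fits that called 36.7%, 6.89% and 39.9% of all genes. With all mice, DESeq2 called 1.35%, 1.05% and 5.87% of the 55453 genes listed in these comparisons. Only 34689 of the genes listed had a count, so these shares are not comparable with those of edgeR. Of the 18311 genes tested by edgeR, 3727, 3043 and 5687 had an unadjusted p under 0.05 in the same comparisons.

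The genes whose log2 CPM over the 12 mice was most like that of each member were named by a fixed rule among 13192 genes, as a description without a test, since all 12 values of a gene share their libraries, groups and hair levels. Tgfb1 was most like Efhd2 (Pearson r = 0.992) and Crlf2 (0.991), Tgfb3 like Lrrc17 (0.985) and the collagen gene Col5a1 (0.984), and Ltbp2 like Arhgap45 (0.972) and Stambpl1 (0.970). Tgfbr2 was most like Mrc1 (0.965) and Dab2 (0.963), the first of which is on the macrophage list used here, and Tgfbr3 like Cped1 (0.959) and the lipase gene Pnpla2 (0.956). The nearest genes were Lama2 (0.942) and Nfia (0.937) for Ltbp1, Arhgap31 (0.928) and Smc5 (0.912) for Tgfbr1, Antxr2 (0.913) and Gas7 (0.906) for Tgfb2, and Zup1 (0.907) and Zwint (0.881) for Inhba, the member with the weakest likeness. Smad7, whose values fell into 2 separate clusters of mice, was nearest to Stox1 and Arid3a.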

How the data were processed

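The authors made stranded mRNA libraries (TruSeq) from mouse skin, sequenced them as read pairs on a NextSeq and deposited raw counts per gene, listed by symbol with 1 column per mouse number. The submitters' processing notes name GRCm38.p6 and MultiQC 1.7. The authors tested their counts with DESeq2, while the aligner, the counting tool and its use of strand are not given in the sources used here.

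The 10 genes and the lists of other pathway genes and markers were chosen with earlier results of these data known. Counts of 18311 genes kept by filterByExpr were scaled by TMM and tested across all genes in edgeR 4.0.16 (R 4.3.3) with the quasi-likelihood test of 4 group means, 5 contrasts and Benjamini-Hochberg adjustment over all genes tested (threshold 0.05). Log2 CPM uses a prior count of 2. The biological coefficient of variation was 34.9%. Named were all 10 genes, up to 2 most risen and 2 most fallen called genes of each pathway list and comparison, and for each member the 2 genes of highest Pearson r among genes whose mean log2 CPM was 1 or more. A gene that this rule names is not reported here.

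Alternatives were DESeq2 1.42.0, RLE scaling, no filter, a mean of at least 1 CPM, only the groups compared, each mouse left out, KO PBS replicate 136 and KO BLM replicate 141 left out together, and the mean of the hair list as a covariate. The steps were tested on simulated data. Exon lengths and positions are from GENCODE M21 (GRCm38). The labels name separate mice but no litter or batch. No 2 libraries of a group agreed within sampling noise. Plots used matplotlib 3.10.9. An exact permutation test was not run, because 3 mice against 3 cannot reach the threshold.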

Additional observations from a re-analysis of the deposited data

How the results depend on the processing

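No paired analysis was possible because no number is shared between mice of different groups and no litter or batch is named in the labels. The coefficient of variation between mice was 34.9%, and leaving out KO PBS replicate 136 raised the calls over all genes from 56 to 2632 between KO groups, from 12 to 6870 between PBS groups and from 0 to 7470 for the difference of responses.

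Of the 10 genes, 6 were called in WT mice under DESeq2, and 4 to 6 when a mouse was left out. The hair covariate left 0 called members in WT mice and gave 2 between KO groups. Leaving out 1 mouse gave 0 to 3 called members between KO groups, 0 to 5 between PBS groups and 0 to 7 for the difference of responses. DESeq2 called 2 between PBS groups and 3 for the difference. Without replicates 136 and 141 together, 5 were called between KO groups, 7 between PBS groups and 6 for the difference, with 22.3%, 40.9% and 38.6% of all genes called. Of the other pathway genes, leaving out 1 mouse gave 15 to 35 called in WT mice, 0 to 12 between KO groups, 0 to 23 between PBS groups, 0 to 4 between bleomycin groups and 0 to 25 for the difference. DESeq2 gave 9, 5, 2 and 13 in the last 4 comparisons, leaving out both mice gave 21, 25, 3 and 27, the hair covariate gave 1 in WT and 13 in KO mice, and a fit of only the 2 KO groups gave 0.

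Directions turned as follows, on the log2 scale, none of them in a called value other than those of Smad7 and Ltbp3 in WT mice, and the cause was not tested. With the hair covariate, the values in WT mice were −0.10 for Tgfbr2, −0.50 for Ltbp1, 0.0609 for Smad7 and 0.0350 for Ltbp3, and that of Ltbp1 between KO groups was 0.0240. Between PBS groups they were −0.39 for Tgfb3, 0.23 for Tgfbr1, −0.14 for Tgfbr2, −0.23 for Ltbp1 and 0.29 for Smad7. Between bleomycin groups they were 0.24 for Tgfb1, 0.29 for Ltbp1, 0.13 for Ltbp2 and −0.62 for Smad7. For the difference of responses they were 0.21 for Tgfb1, 0.37 for Tgfb3, 0.0880 for Tgfbr2, 0.52 for Ltbp1 and −0.903 for Smad7. Without replicates 136 and 141, Smad7 was at 0.22 between KO groups and Tgfb1 at 0.0275 between bleomycin groups. Leaving out 1 mouse gave −0.0601 to 0.74 for Ltbp2 and −0.92 to 0.69 for Smad7 between KO groups, −0.0805 to 0.12 for Tgfbr1 between PBS groups and −0.29 to 0.10 for Tgfb1 between bleomycin groups. RLE scaling and the filters on low counts turned no direction and moved no count of called members or pathway genes by over 1.5 times. Over all genes, leaving out the filter moved the calls from 56 to 176 between KO groups and from 0 to 20 for the difference. DESeq2 called 7682 genes between WT groups, 1202 between KO groups, 746 between PBS groups, 585 between bleomycin groups (17 by edgeR) and 3253 for the difference.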
